A study of Danio rerio x Danio aesculapii and Danio rerio x Danio albolineatus and Danio rerio x Danio kyathit with 48 samples.

Results

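The genes pmela and gpnmb encode related melanosomal glycoproteins and are described here across hybrids and sorted pigment cells of Danio skin. They were taken by symbol from tables of 19629 genes, so the account covers 2 of 19629 genes in all 48 libraries. The study sequenced polyA RNA from adult skin of hybrids between D. rerio (zebrafish) mothers and fathers of 4 other species. RNA was amplified with a SMART-seq2 kit, Nextera libraries were read from both ends, and the authors gave each read to the allele of 1 parent. Paternal species were D. nigrofasciatus, D. kyathit, D. albolineatus and D. aesculapii, and each hybrid is called here by its father. Iridophore-enriched libraries were sorted on pnp4a:mem-mCherry, melanophore-enriched libraries on tyrp1b:mem-mCherry and xanthophore-enriched libraries on aox5:mem-EGFP, and the control was unenriched whole skin. Every group therefore carries a D. rerio and a paternal genome, and a sorted library holds whatever cells passed the gate for a fluorescent reporter. For every hybrid and kind there were 3 libraries, so 16 groups in all, numbered 3, 4 and 5, and the labels call these numbers batches. Values of a group are listed in the order of replicates 3, 4 and 5. The sources used here do not say that replicates came from separate fish, and a p-value here speaks for the spread among these libraries alone, which could be technical in origin.

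Pmel is a transmembrane glycoprotein that is cleaved inside the early melanosome and assembles into amyloid fibrils, the sheets on which melanin is laid down. Zebrafish that lack pmela are pale, and a second copy, pmelb, is known in this fish. Gpnmb belongs to the same protein family. In mammals it is found in melanosomes but also in macrophages and osteoclasts and is a target of MITF and TFE transcription factors, and in zebrafish its transcript is known as a marker of iridophores, the pigment cells that hold reflective purine crystals.

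Summed over both alleles, the deposited values of a library added up to between 5173935 and 12500648, with a median of 6067851. These are allele read counts that the authors had scaled and rounded, so they no longer show the number of reads. The number of RNA molecules behind them was therefore estimated from the scatter of allele shares between replicates. By that estimate libraries held 34435 to 841060 molecules, with medians of 166718 in iridophore-, 80954 in melanophore- and 80789.5 in xanthophore-enriched libraries and 401797.5 in unenriched ones. The reporter genes followed the labels. On the scale of log2(value + 20), pnp4a rose by 5.76 ± 0.31 (SE) in iridophore-enriched over unenriched libraries, tyrp1b by 6.36 ± 0.49 in melanophore-enriched libraries and aox5 by 2.45 ± 0.39 in xanthophore-enriched libraries, with limma's adjusted p at 1.68e-17, 3.97e-12 and 1.48e-05. Transcripts of the other gates were present as well, since tyrp1b was also higher in iridophore-enriched libraries (1.95 ± 0.65, adjusted p = 0.0112) and pnp4a in melanophore-enriched libraries (2.33 ± 0.34, adjusted p = 1.53e-06). In bulk libraries fewer cells of a type and less RNA per cell cannot be told apart.

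The transcript of gpnmb was highest in iridophore-enriched libraries of every hybrid, and that of pmela in melanophore-enriched libraries. Iridophore-enriched libraries averaged 19803 ± 11163 for gpnmb and unenriched libraries 782 ± 979 (SD, n = 12 each), in the authors' normalised value summed over both alleles. For pmela, melanophore-enriched libraries averaged 30156 ± 28561 and unenriched libraries 1319 ± 2439 (SD, n = 12 each). In melanophore-enriched libraries gpnmb also rose, while in xanthophore-enriched libraries neither gene passed the test.

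For gpnmb, iridophore-enriched libraries of the aesculapii hybrid held 27733, 35326 and 42273, against 841, 1008 and 188 in its unenriched libraries. The albolineatus hybrid had 10481, 23893 and 8148 in iridophore-enriched libraries, against 578, 308 and 167 in unenriched libraries. Every iridophore-enriched library of both hybrids lay above every unenriched library of its own hybrid. In the kyathit hybrid the values were 15348, 12996 and 8446 in iridophore-enriched libraries, against 182, 381 and 3488 in unenriched libraries. In the nigrofasciatus hybrid they were 26220, 12011 and 14758 in iridophore-enriched libraries, against 1791, 303 and 151 in unenriched libraries. Over all hybrids the 12 iridophore-enriched libraries (8148 to 42273) did not overlap the 12 unenriched libraries (151 to 3488). The mean of the 4 within-hybrid differences was 5.45 ± 0.31 (SE) on the log2(value + 20) scale, a fold of 43.8, with limma's adjusted p = 1.05e-16. In that comparison 27% of the 5568 genes tested rose and 28.4% fell.

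Melanophore-enriched libraries held less gpnmb than iridophore-enriched ones and more than unenriched skin. The aesculapii hybrid had 11096, 3956 and 2225 in its melanophore-enriched libraries, the albolineatus hybrid 3149, 1826 and 1223, the kyathit hybrid 1063, 2223 and 800, and the nigrofasciatus hybrid 5686, 5395 and 3598. Of the 12 libraries, 10 lay above the mean of the unenriched libraries of the same hybrid, and both exceptions were kyathit libraries, where replicate 5 of the unenriched skin held 3488. The mean difference from unenriched skin was 2.64 ± 0.33 on the log2(value + 20) scale, with limma's adjusted p = 1.08e-07, where 22.4% of 3009 genes rose and 19.7% fell. Markers of other cells were higher in the same libraries. Of 18 tested markers of macrophages and leukocytes, 13 rose in melanophore-enriched over unenriched libraries and 1 fell, and the summed level of the 23 listed genes ran from 74197 to 142057 in melanophore-enriched and from 17411 to 62609 in unenriched libraries. Of 12 tested iridophore markers 10 rose and 1 fell, with a summed level over 18 genes of 16326 to 96853 in melanophore-enriched and 4321 to 86068 in unenriched libraries. None of these markers was at 0 in all libraries of a kind, and their part in the gpnmb level was not tested.

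Xanthophore-enriched libraries stayed near unenriched skin for gpnmb. They held 122, 181 and 2328 in the aesculapii hybrid, 3530, 138 and 704 in the albolineatus hybrid, 641, 298 and 218 in the kyathit hybrid and 612, 255 and 275 in the nigrofasciatus hybrid. These values came from few estimated molecules, 0.893 to 60.1 a library. The difference from unenriched skin was -0.34 ± 0.50 on the log2(value + 20) scale (limma's adjusted p = 0.634), with a 95% interval from -1.36 to 0.67, and it was 0.31 without replicate 4 of every group. In this comparison 14.1% of 2746 genes rose and 11.9% fell.

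**Figure D1:**
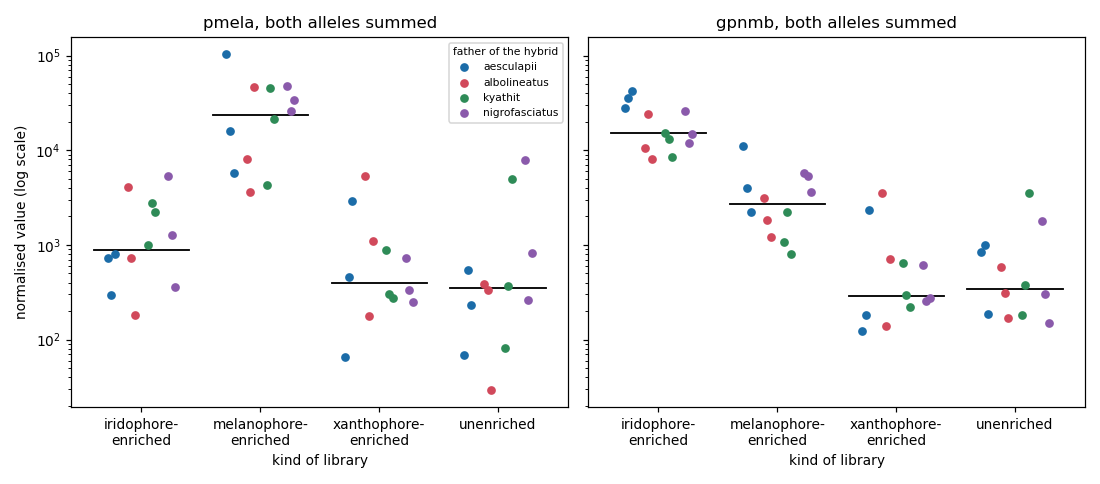
Values of pmela (left) and gpnmb (right) in each of the 48 libraries, both alleles summed, on a log axis of the authors' normalised value. Points are libraries coloured by the father of the hybrid and bars are medians over 12 libraries, which for gpnmb are 15053 in iridophore-enriched and 344.5 in unenriched libraries, and for pmela 23754 in melanophore-enriched and 350.5 in unenriched libraries.

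For pmela the order of the sorted kinds was different. Melanophore-enriched libraries of the aesculapii hybrid held 103653, 15788 and 5702, against 68, 536 and 229 in its unenriched libraries. The albolineatus hybrid had 8024, 3593 and 46067 in melanophore-enriched libraries, against 389, 335 and 29 in unenriched libraries. Replicates of the same group thus differed by more than 10-fold in both hybrids, while each melanophore-enriched library stayed above each unenriched one of its hybrid. In the kyathit hybrid the melanophore-enriched libraries held 4271, 45478 and 21509, against 82, 366 and 4921 in unenriched libraries. In the nigrofasciatus hybrid they held 47629, 25999 and 34160, against 7783, 262 and 826 in unenriched libraries. In the kyathit hybrid the groups overlapped by 1 library, since replicate 5 of the unenriched skin lay above replicate 3 of the sorted cells. The mean difference was 5.52 ± 0.52 (SE) on the log2(value + 20) scale, a fold of 46.0, with limma's adjusted p = 3.33e-10, and all 12 melanophore-enriched libraries lay above the mean of the unenriched libraries of their hybrid.

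Iridophore-enriched libraries held 731, 292 and 791 of pmela in the aesculapii hybrid, 4110, 725 and 182 in the albolineatus hybrid, 989, 2752 and 2238 in the kyathit hybrid and 5346, 1267 and 358 in the nigrofasciatus hybrid. Of these 12 libraries 8 lay above the mean of their hybrid's unenriched libraries. The mean difference of 1.52 ± 0.68 on the log2(value + 20) scale did not pass, with limma's adjusted p = 0.0584 and a 95% interval from 0.13 to 2.91. It passed under 3 of 12 alternatives, among them a replicate block per hybrid (1.59, adjusted p = 0.0396). Another of these left out the unenriched libraries with the highest pmela, which by itself raises the difference. Leaving out 1 replicate number gave 0.84 to 1.81, with the lowest value without replicate 3 and no adjusted p below 0.154. The melanophore reporter gene tyrp1b, whose summed value averaged 2336 ± 2256 in iridophore-enriched and 1432 ± 2360 in unenriched libraries (SD, n = 12 each), moved with pmela in these libraries. The within-library log2 ratio of pmela over tyrp1b, each plus 20, was -0.47 ± 0.28 in iridophore-, -0.67 ± 0.39 in melanophore- and -0.43 ± 0.40 in xanthophore-enriched libraries and -0.13 ± 0.69 in unenriched ones (SD, n = 12 each). The part that melanophore RNA had in the pmela level of the iridophore-enriched libraries was not tested.

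In xanthophore-enriched libraries pmela stood at 66, 459 and 2940 in the aesculapii hybrid, 5363, 176 and 1096 in the albolineatus hybrid, 884, 304 and 275 in the kyathit hybrid and 729, 335 and 250 in the nigrofasciatus hybrid. Single libraries set the upper end, and the range of 66 to 5363 lay within that of unenriched skin (29 to 7783). The difference was 0.18 ± 0.88 on the log2(value + 20) scale (limma's adjusted p = 0.900), with a 95% interval from -1.60 to 1.97. The related pmelb was barely detected, with medians of 4 in iridophore-, 3.5 in melanophore- and 1.5 in xanthophore-enriched libraries and 0 in unenriched ones (n = 12 each). Its highest values were 347 in an albolineatus iridophore-enriched and 188 in an aesculapii melanophore-enriched library, and it was below the minimum for testing in these comparisons.

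Set directly against each other, the sorted kinds separated the genes in opposite directions. In melanophore-enriched over iridophore-enriched libraries pmela rose by 4.00 ± 0.58 (limma's adjusted p = 6.51e-07), while gpnmb fell by 2.82 on the same log2(value + 20) scale (SE 0.31, adjusted p = 2.09e-09), where 19.8% of 3110 genes rose and 21% fell. None of the 12 melanophore-enriched libraries reached the mean gpnmb value of the iridophore-enriched libraries of its hybrid. In melanophore-enriched over xanthophore-enriched libraries both genes rose, pmela by 5.34 ± 0.80 (adjusted p = 1.88e-05) and gpnmb by 2.98 ± 0.50 (adjusted p = 8.41e-05), among 5.04% of 2757 genes that did. Without replicate 4 of every group neither passed, with pmela at 4.82 (adjusted p = 0.208) and gpnmb at 2.02 (adjusted p = 0.365). In iridophore-enriched over xanthophore-enriched libraries gpnmb rose by 5.80 ± 0.48 (adjusted p = 6.46e-12) and pmela did not pass (1.34 ± 0.91, adjusted p = 0.255, 95% interval -0.52 to 3.2), where 20.6% of 2812 genes rose.

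**Figure D2:**
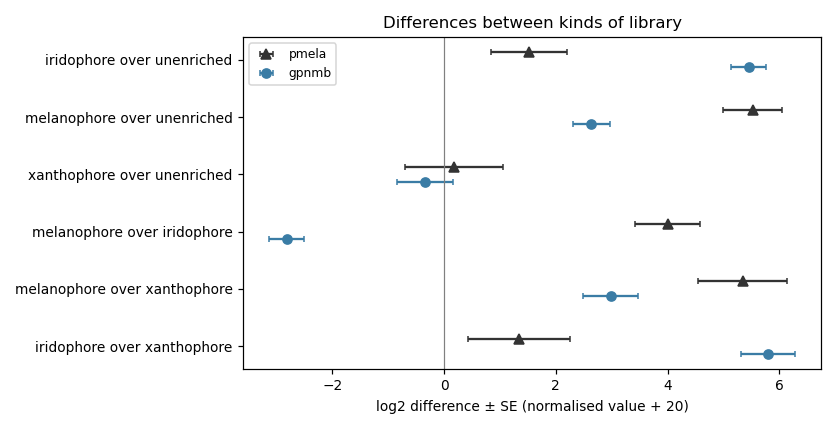
Differences between kinds of library for pmela (triangles) and gpnmb (circles), each the mean of 4 within-hybrid differences on the log2(value + 20) scale with its SE, and the first-named kind on top of the difference. In melanophore-enriched over iridophore-enriched libraries pmela stands at 4.00 and gpnmb at -2.82, on opposite sides of 0.

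The same differences were taken within each batch number as unweighted means over the 4 hybrids. For gpnmb in iridophore-enriched over unenriched libraries they were 4.81, 5.38 and 5.21 in batches 3, 4 and 5, and in melanophore-enriched over unenriched libraries 2.54, 2.75 and 2.12. For pmela in melanophore-enriched over unenriched libraries they were 5.63, 5.40 and 5.46, and in iridophore-enriched over unenriched libraries 2.30, 1.32 and 0.36. The means of the first 3 comparisons thus kept their size in each batch, and that of the last, which had not passed, was smallest in batch 5. Single hybrids differed more. In batch 5 gpnmb in iridophore-enriched over unenriched libraries ran from 1.27 to 7.67 among hybrids. For pmela in melanophore-enriched over unenriched libraries the range there was 2.12 to 9.88. For gpnmb in that comparison the lowest hybrid stood at -2.1 in batch 5, below 0, where the mean was 2.12. In melanophore-enriched over iridophore-enriched libraries the means of pmela stood at 3.33, 4.08 and 5.10 and those of gpnmb at -2.27, -2.63 and -3.09. Against xanthophore-enriched libraries gpnmb varied more, at 4.77, 6.38 and 4.62 in iridophore-enriched and 2.50, 3.74 and 1.53 in melanophore-enriched libraries.

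Apart from the added 20, which matters at low values, the ratio of the genes within a library does not depend on a scale factor shared by both alleles. The authors scaled each allele separately, and a difference between those factors does not cancel. On the log2((gpnmb + 20)/(pmela + 20)) scale it averaged 4.03 ± 1.78 in iridophore-, -2.81 ± 1.40 in melanophore- and -0.31 ± 0.47 in xanthophore-enriched libraries and 0.22 ± 1.54 in unenriched ones (SD, n = 12 each). It was above 0 in 12 of 12 iridophore-enriched libraries, in 0 of 12 melanophore-enriched, 2 of 12 xanthophore-enriched and 7 of 12 unenriched libraries. Lengths of the transcripts were not used, so the sign says nothing of which gene had more RNA, and only differences between kinds are compared. The difference between iridophore-enriched and melanophore-enriched libraries was 6.83 (two-sided exact permutation test within hybrids, p = 1.25e-05, adjusted over 6 pairs 2.5e-05). That is the smallest p the 160000 arrangements can give. It was 3.81 between iridophore-enriched and unenriched libraries and -3.03 between melanophore-enriched and unenriched libraries, each with an adjusted exact permutation p of 3e-05. Xanthophore-enriched libraries did not differ from unenriched ones beyond this test (-0.52, exact permutation p = 0.267).

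**Figure D3:**
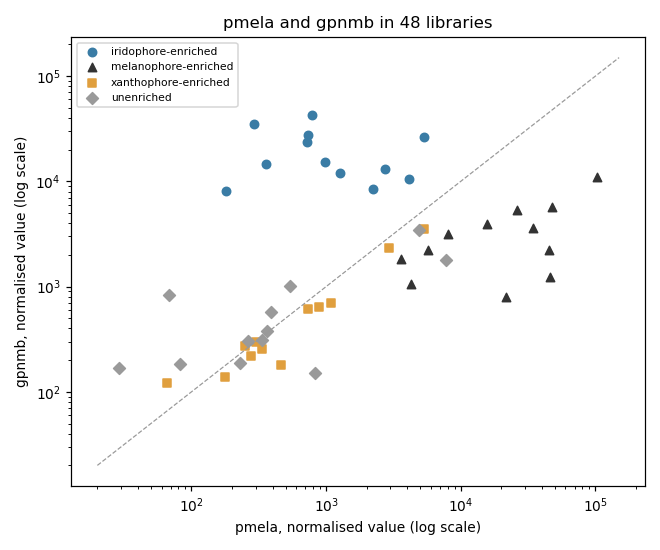
gpnmb against pmela in the 48 libraries, both axes on a log scale of the authors' normalised value summed over alleles, with marker shapes for the kinds of library and a dashed line where both values are equal. All 12 iridophore-enriched libraries lie above the line and all 12 melanophore-enriched libraries below it, while the other kinds scatter along it.

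The iridophore reporter gene pnp4a gives the like ratio for gpnmb. The within-library log2 ratio of gpnmb over pnp4a, each plus 20, was -0.09 ± 0.84 in iridophore-, 0.53 ± 0.95 in melanophore- and -1.07 ± 0.73 in xanthophore-enriched libraries and 0.15 ± 0.64 in unenriched ones (SD, n = 12 each). These ratios were not compared by a test.

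Within single hybrids, gpnmb rose in iridophore-enriched over unenriched libraries in 4 of 4 cases. The log2 difference was 5.83 ± 0.62 in the aesculapii hybrid, 5.15 ± 0.54 in the albolineatus hybrid, 5.15 ± 0.55 in the kyathit hybrid and 5.67 ± 0.77 in the nigrofasciatus hybrid, with limma's adjusted p from 1.17e-09 to 7.69e-07. Among all genes tested 20.7%, 26.9%, 11.3% and 11.2% rose in these hybrids, in the same order. Without replicate 4 the kyathit value was 3.76 and did not pass (adjusted p = 0.102), and without replicate 3 it was 3.15 and passed. For pmela only the kyathit hybrid passed in iridophore-enriched libraries (2.81 ± 0.99, adjusted p = 0.0337), and it did not with a replicate block per hybrid (2.79, adjusted p = 0.0634) or without any single replicate number (0.86 to 3.08, adjusted p from 0.112 to 0.896). It was also lost without weights (1.67, adjusted p = 0.811) and with no filter on low values (adjusted p = 0.0588).

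In melanophore-enriched over unenriched libraries pmela rose in 4 of 4 hybrids, by 5.52 ± 1.33 in the aesculapii hybrid (limma's adjusted p = 0.018), 4.97 ± 0.75 in the albolineatus hybrid, 6.17 ± 0.98 in the kyathit hybrid and 5.42 ± 1.05 in the nigrofasciatus hybrid. With a replicate block per hybrid the aesculapii value was 5.87 (adjusted p = 0.0679). With fewer replicates some of these no longer passed: the aesculapii and kyathit values were 7.36 (adjusted p = 0.104) and 3.76 (adjusted p = 0.637) without replicate 4. The kyathit value was 4.50 (adjusted p = 0.151) without replicate 3 and 4.80 (adjusted p = 0.0615) without weights, and the nigrofasciatus value 3.97 (adjusted p = 0.24) without replicate 4 and 4.57 (adjusted p = 0.149) without replicate 5. For gpnmb the albolineatus hybrid (2.90 ± 0.54, adjusted p = 9.29e-05) and the nigrofasciatus hybrid (3.72 ± 0.72, adjusted p = 0.000698) passed. The albolineatus call was lost without replicate 3 (2.61, adjusted p = 0.0582) or 4 (2.57, adjusted p = 0.15) and without weights (2.54, adjusted p = 0.113), and the nigrofasciatus call without replicate 4 (3.03, adjusted p = 0.217) or 5 (2.86, adjusted p = 0.149). The aesculapii and kyathit hybrids stood at 2.27 ± 0.70 (adjusted p = 0.0769) and 1.65 ± 0.68 (adjusted p = 0.0973). With the replicate number as a block they were 2.46 and 1.84 and both passed, with adjusted p of 0.0381 and 0.0454. The kyathit value passed under 2 of 12 alternatives, the block per hybrid not among them, and was 0.19 without replicate 3 and 0.16 without replicate 4 (adjusted p = 0.958 and 0.989). In the aesculapii, albolineatus, kyathit and nigrofasciatus hybrids 2.29%, 19.7%, 10.2% and 8.57% of all genes tested rose in this comparison.

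In xanthophore-enriched libraries neither gene passed in the albolineatus, kyathit or nigrofasciatus hybrid. In the aesculapii hybrid neither was tested, since the mean of its xanthophore-enriched and unenriched values was worth fewer than 5 molecules in the shallower kind. The share of genes that rose and fell there was 17.4% and 13.5% in the albolineatus, 2.85% and 3.53% in the kyathit and 3.45% and 1.72% in the nigrofasciatus hybrid. The test of the difference among hybrids in how far either gene stood from unenriched skin did not pass. For iridophore-enriched libraries limma's F test gave an adjusted p of 0.838 for pmela and 0.886 for gpnmb, where 5.12% of genes passed. For melanophore-enriched libraries the adjusted p was 0.951 for pmela and 0.574 for gpnmb (1.13% of genes passed), and for xanthophore-enriched libraries 0.889 and 0.684 (0.109% passed).

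The level of gpnmb in iridophore-enriched libraries did differ among hybrids. The aesculapii libraries, from 27733 to 42273, lay above all libraries of the other hybrids, and the kyathit, albolineatus and nigrofasciatus libraries overlapped each other. limma's F test gave 5.48 (adjusted p = 0.0237), and 22% of genes passed it. The call was lost with equal library totals (F = 4.44, adjusted p = 0.0514), without weights (F = 1.09, adjusted p = 0.657), with a replicate block per hybrid (F = 3.92, adjusted p = 0.124) and without any single replicate number (adjusted p from 0.0623 to 0.903). No such difference was called for gpnmb in melanophore-enriched (adjusted p = 0.182), xanthophore-enriched (0.865) or unenriched libraries (0.56). For pmela the adjusted p was 0.708 in iridophore-, 0.268 in melanophore- and 0.953 in xanthophore-enriched libraries and 0.809 in unenriched ones. Of all genes 4.96%, 1.05% and 10.1% passed in melanophore-enriched, xanthophore-enriched and unenriched libraries.

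Of the unenriched libraries, kyathit replicate 5 and nigrofasciatus replicate 3 stood apart from the other 10. They held 4921 and 7783 of pmela, against a median of 298.5 in the others, and 3488 and 1791 of gpnmb, against a median of 305.5. The reporter genes pnp4a and tyrp1b stood apart likewise, with 3694 and 2808 of pnp4a against a median of 245.5 and 7217 and 5218 of tyrp1b against 220. The reporter gene aox5 did not, with 840 and 765, within the 118 to 1160 of the others. Without both libraries the pmela difference in iridophore-enriched over unenriched libraries was 1.80 and passed (limma's adjusted p = 0.0251). The aesculapii and kyathit differences of gpnmb in melanophore-enriched over unenriched libraries, 2.27 and 1.95, then passed as well (adjusted p = 0.0459 and 0.037). Both left-out libraries are high in these genes, so a larger pmela or kyathit difference follows from leaving them out. The aesculapii difference holds neither library and was 2.27 with them too.

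Each library also gave a ratio of the paternal allele over the D. rerio allele, both in the same cells. Ratios are given as log2 of estimated molecules, each plus 0.5, centred on the median gene of the library, and a ratio from fewer than 3 molecules was left out. A value below 0 means a lower paternal over D. rerio ratio than that of the library's median gene. Where centred ratios are given, the paternal allele is described as lower or higher in that sense. These ratios rest on reads assigned to an allele, and a preference of the alignment for either allele was not tested. The paternal allele of gpnmb was lower in all 14 groups that could be tested, and the call passed in 9 of them. It was lower in 42 of 44 libraries with a ratio. Before centring, its share of the gpnmb value summed over the 12 libraries of a hybrid was 44.6% in the aesculapii, 26.9% in the albolineatus, 25.7% in the kyathit and 29.5% in the nigrofasciatus hybrid. The authors had already scaled each allele column, and iridophore-enriched libraries, where gpnmb was highest, weigh most in these shares. No allele difference passed for pmela.

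In iridophore-enriched libraries, where gpnmb was highest, the normalised values per allele were 14005, 14905 and 17729 for the D. aesculapii allele, against 13728, 20421 and 24544 for the D. rerio allele. The D. albolineatus allele had 2001, 7677 and 2091, against 8480, 16216 and 6057 for D. rerio. The paternal allele was thus lower in all 3 albolineatus libraries and in 2 of 3 aesculapii libraries. The D. kyathit allele had 3782, 3217 and 1974, against 11566, 9779 and 6472 for D. rerio. The D. nigrofasciatus allele had 5874, 5461 and 4100, against 20346, 6550 and 10658 for D. rerio. Both of these fathers' alleles were lower in each of their 3 libraries, and the kyathit replicates were the closest to each other.

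**Figure D4:**
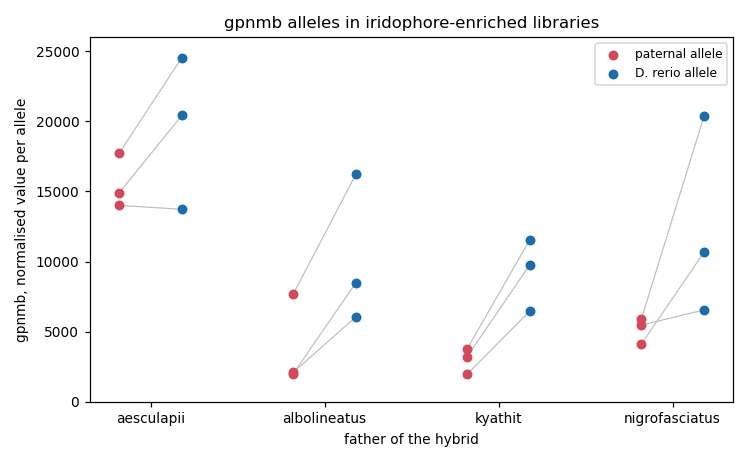
Normalised value of the paternal and the D. rerio allele of gpnmb in the 12 iridophore-enriched libraries, with a line joining the alleles of a library. The line goes up from the paternal to the D. rerio allele in 11 libraries, and down in aesculapii replicate 3 (14005 and 13728).

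The fitted centred log2 ratio of gpnmb in iridophore-enriched libraries was -1.66 ± 0.18 (SE) in the albolineatus hybrid (limma's adjusted p = 3.48e-06), -1.64 ± 0.10 in the kyathit hybrid (adjusted p = 1.64e-09) and -1.11 ± 0.22 in the nigrofasciatus hybrid (adjusted p = 0.00221). After centring, the paternal allele stood at 0.316, 0.320 and 0.465 times the D. rerio allele, in that order. Without replicate 4, whose ratio was -0.35 against -2.02 and -1.46 in replicates 3 and 5, the nigrofasciatus value was -1.87 (adjusted p = 8.5e-05). In the aesculapii hybrid the ratio of -0.36 ± 0.14 did not pass (adjusted p = 0.0714, 95% interval -0.65 to -0.08), and without replicate 3 it was -0.46 (adjusted p = 0.015). In these libraries the paternal allele was called lower (adjusted p below 0.05) in 10.2% of all genes tested in the aesculapii, 13.6% in the albolineatus, 12.9% in the kyathit and 15.7% in the nigrofasciatus hybrid.

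In melanophore-enriched libraries the gpnmb ratios per library were 0.16, -0.76 and -0.97 in the aesculapii hybrid, -1.59, -1.84 and -3.59 in the albolineatus hybrid, -0.68, -1.14 and -1.64 in the kyathit hybrid and -1.87, -0.91 and -0.96 in the nigrofasciatus hybrid. The paternal allele was lower in 11 of 12 libraries. The fitted ratio passed in the albolineatus (-1.99 ± 0.38, limma's adjusted p = 0.00191), kyathit (-1.04 ± 0.30, adjusted p = 0.026) and nigrofasciatus hybrids (-1.12 ± 0.36, adjusted p = 0.0427), and not in the aesculapii hybrid (-0.52 ± 0.29, adjusted p = 0.3). The kyathit call was lost without any single replicate number (adjusted p from 0.0734 to 0.0949). The nigrofasciatus call was lost without replicate 3 (0.0728) or 5 (0.0999) and with no centring (0.0621). The share of genes called lower for the paternal allele was 6.14%, 7.51%, 8.8% and 12.2% in the aesculapii, albolineatus, kyathit and nigrofasciatus hybrids.

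In unenriched libraries the gpnmb ratios were -1.0, -1.21 and -0.27 in the aesculapii hybrid, -2.81, -2.32 and -2.38 in the albolineatus hybrid, -1.98, -1.89 and -0.96 in the kyathit hybrid and -1.27, -0.84 and -1.62 in the nigrofasciatus hybrid. All 12 were below 0, and the albolineatus libraries were the lowest. The fitted ratio passed in the aesculapii (-0.85 ± 0.28, limma's adjusted p = 0.0455), albolineatus (-2.58 ± 0.26, adjusted p = 3.49e-07) and kyathit hybrids (-1.87 ± 0.25, adjusted p = 2.29e-05). After centring, the D. albolineatus allele stood at 0.168 times the D. rerio allele in unenriched albolineatus libraries. There 2.49% of all genes tested had a ratio below that of gpnmb, the lowest such share of the 14 tested groups. This share was 13.3%, 3% and 12.9% in unenriched libraries of the aesculapii, kyathit and nigrofasciatus hybrids. In iridophore-enriched libraries it was 33.7%, 8.19%, 5.81% and 15.7% in the aesculapii, albolineatus, kyathit and nigrofasciatus hybrids. The fitted ratio in unenriched nigrofasciatus libraries was -1.18 ± 0.49 (adjusted p = 0.0838), and -1.24 with the replicate block (adjusted p = 0.0144). The aesculapii call was lost without any single replicate number (adjusted p from 0.0631 to 0.13), with a larger pseudocount (0.0538) and without weights (0.288), and the kyathit call without replicate 3 (-1.53, adjusted p = 0.201). The share of genes called lower was 9.7%, 17.5%, 16.5% and 15.3% in the aesculapii, albolineatus, kyathit and nigrofasciatus hybrids.

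Xanthophore-enriched libraries gave ratios for gpnmb of -1.07 and -1.50 in albolineatus replicates 3 and 5, and of -1.54, -1.13 and -1.45 in the kyathit hybrid. The fitted values were -1.16 ± 0.54 (limma's adjusted p = 0.186) and -1.36 ± 0.47 (adjusted p = 0.072), with 95% intervals from -2.29 to -0.02 and from -2.36 to -0.36. In these groups 6.36% and 6.91% of genes were called lower. The aesculapii and nigrofasciatus groups held too few molecules for a test. Of the 9 groups in which gpnmb passed, 5 did so under every alternative that could be run, namely the 3 albolineatus groups and the iridophore-enriched libraries of the kyathit and nigrofasciatus hybrids.

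**Figure D5:**
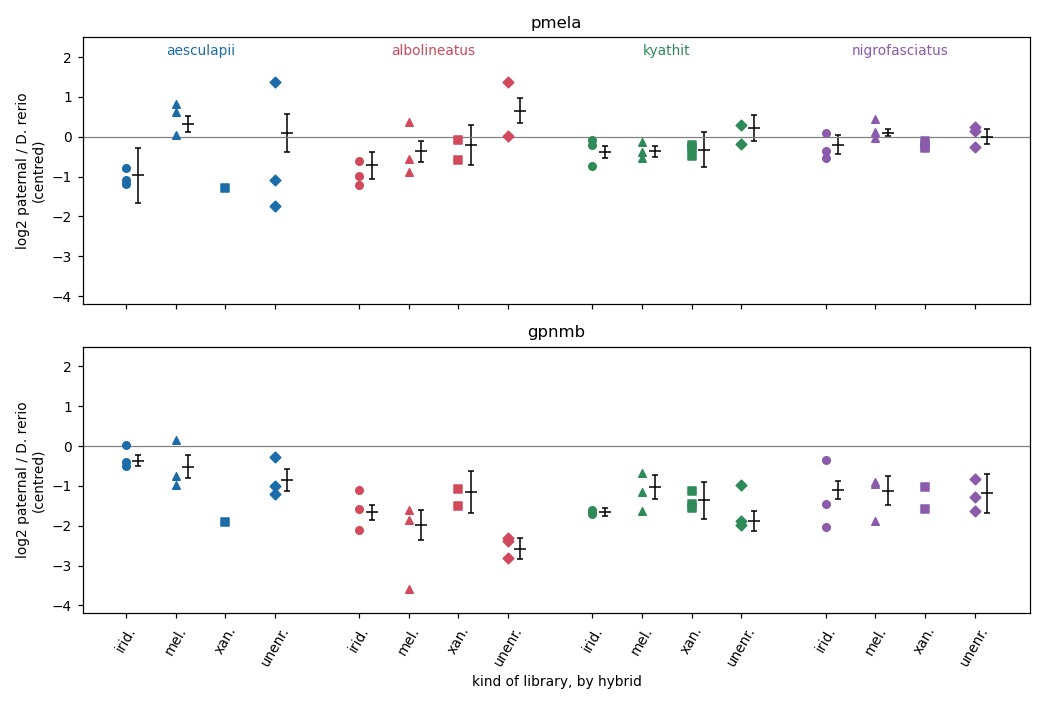
Centred log2 ratio of the paternal over the D. rerio allele of pmela (top) and gpnmb (bottom) by hybrid and kind of library (irid., mel., xan., unenr. for iridophore-, melanophore-, xanthophore-enriched and unenriched). Points are libraries and bars the fitted mean ± SE where it was tested. For gpnmb all 14 fitted means lie below 0, while for pmela 8 of 14 do.

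For pmela the centred ratio was below 0 in 30 of 43 libraries with a ratio, and 8 of 14 fitted means were below 0. Before centring, the paternal value was the smaller in 32 of 48 libraries. None of the 14 groups passed limma's adjusted threshold, and 2 had an unadjusted p below 0.05. Both were kyathit groups, with -0.39 ± 0.15 in iridophore-enriched (adjusted p = 0.0755) and -0.37 ± 0.14 in melanophore-enriched libraries (adjusted p = 0.0782). Without replicate 3 the kyathit melanophore-enriched ratio was -0.50 and passed (adjusted p = 0.0392). The melanophore-enriched ratios per library, where pmela was highest, were 0.03, 0.83 and 0.63 in the aesculapii hybrid, -0.56, -0.88 and 0.38 in the albolineatus hybrid, -0.13, -0.54 and -0.37 in the kyathit hybrid and 0.45, 0.13 and -0.04 in the nigrofasciatus hybrid. The aesculapii libraries lay above 0 and the kyathit libraries below it, while the other hybrids had centred ratios on both sides. Before centring the nigrofasciatus ratios were 0.57, 0.25 and 0.11, all above 0. The fitted means in these libraries were 0.32 ± 0.21 in the aesculapii (95% interval -0.12 to 0.75), -0.37 ± 0.27 in the albolineatus (-0.93 to 0.20) and 0.10 ± 0.09 in the nigrofasciatus hybrid (-0.09 to 0.29).

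In iridophore-enriched libraries the pmela ratios were -1.18, -1.08 and -0.79 in the aesculapii hybrid and -0.60, -0.98 and -1.22 in the albolineatus hybrid, all below 0. They came from 4.63 to 112 molecules a library and the fitted means did not pass (-0.97 ± 0.69, limma's adjusted p = 0.365, and -0.71 ± 0.34, adjusted p = 0.147). The nigrofasciatus libraries had 0.10, -0.36 and -0.55 (fitted -0.20 ± 0.24, adjusted p = 0.567). In unenriched libraries the albolineatus hybrid had 0.02 and 1.38 in replicates 3 and 4. Its fitted mean of 0.66 ± 0.31 did not pass (adjusted p = 0.118), and was 0.84 with the replicate block (adjusted p = 0.0449). The other unenriched groups stood at 0.09 ± 0.48 in the aesculapii, 0.22 ± 0.33 in the kyathit and 0.01 ± 0.19 in the nigrofasciatus hybrid. The aesculapii libraries behind that mean had -1.73, -1.09 and 1.38, on both sides of 0 and none near it. The tested xanthophore-enriched groups stood at -0.20 ± 0.50 in the albolineatus and -0.32 ± 0.45 in the kyathit hybrid. For comparison, the paternal allele was called higher in 9.08%, 11%, 12.1% and 12.3% of genes in iridophore-enriched libraries of the aesculapii, albolineatus, kyathit and nigrofasciatus hybrids. In melanophore-enriched libraries the shares were 4.19%, 5.11%, 7.78% and 6.92%, and in unenriched libraries 7.71%, 15.9%, 14.1% and 12.6%. In xanthophore-enriched libraries of the albolineatus and kyathit hybrids they were 3.08% and 5.12%.

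A difference in allele ratio between the 4 kinds of library was tested in the albolineatus and kyathit hybrids, where every kind had enough molecules. For gpnmb limma's F test gave 5.33 (adjusted p = 0.117) in the albolineatus and 2.85 (adjusted p = 0.379) in the kyathit hybrid. For pmela it gave 3.23 (adjusted p = 0.278) and 1.40 (adjusted p = 0.658). Of all genes 3.45% and 1.73% passed in these hybrids. Among hybrids, the gpnmb ratio differed in iridophore-enriched libraries (F = 8.12, adjusted p = 0.00816, 32.9% of genes passed) and in unenriched libraries (F = 9.75, adjusted p = 0.00237, 43.4% of genes passed). The fitted ratio in iridophore-enriched libraries ran from -1.66 in the albolineatus to -0.36 in the aesculapii hybrid, with the albolineatus and kyathit hybrids within their SE of each other. The iridophore call was lost without replicate 5 (F = 5.64, adjusted p = 0.0548) and without weights (F = 3.93, adjusted p = 0.0935). The unenriched call was lost without replicate 3 (F = 3.12, adjusted p = 0.121), and without replicate 4 or 5 it could not be tested. In melanophore-enriched libraries the adjusted p was 0.121 for gpnmb, where 23% of genes passed. For pmela it was 0.561 in iridophore-enriched, 0.14 in melanophore-enriched and 0.764 in unenriched libraries. The melanophore-enriched pmela value passed without replicate 3 (adjusted p = 0.0424), without replicate 5 (0.0447) and with no centring (0.0308). The xanthophore-enriched libraries were not tested, since only 2 hybrids had enough molecules there.

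Over the 16 group means of log2(value + 20), among 3665 genes with a mean of at least 300, the genes most like pmela were tyrp1b (Pearson r = 0.996), zgc:91968 (0.953), tyrp1a (0.950), tspan10 (0.950) and asah1b (0.930). tyrp1a and tyrp1b encode enzymes of melanin synthesis and tspan10 a tetraspanin. Those most like gpnmb were csf1a (0.973), pip5k1bb (0.970), si:ch73-89b15.3 (0.968), unm_sa821 (0.964) and rgs16 (0.963). csf1a encodes a ligand of the Csf1 receptor, which xanthophores and macrophages carry, pip5k1bb a phosphatidylinositol kinase and rgs16 a regulator of G-protein signalling. Between pmela and gpnmb r was 0.353, which put gpnmb at rank 428 for likeness to pmela, with pmela itself counted in that rank. These values describe 16 means that share libraries and sorting, and were not tested.

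Among genes for processing and sorting of Pmel, 4 of 8 tested rose and 1 fell in melanophore-enriched over unenriched libraries, with a median log2 of 0.58, against -0.02 over all genes tested. Counts in this and the following lists are to be read beside the shares of all genes that passed, which were 22.4% higher and 19.7% lower in melanophore-enriched, 27% and 28.4% in iridophore-enriched and 14.1% and 11.9% in xanthophore-enriched libraries. The protease gene bace2, whose mammalian product cleaves PMEL, rose by 2.19 ± 0.21 (limma's adjusted p = 1.38e-12) and gpr143, for a melanosomal receptor, by 1.88 ± 0.20. In iridophore-enriched libraries 3 of 12 rose and 4 fell (median -0.35, against -0.05 over all genes), close to those shares, with bace2 at 2.22 ± 0.20 and gpr143 at 2.41 ± 0.20 here too, and sytl2b at 5.53 ± 0.31. apoeb, whose mammalian counterpart helps Pmel fibrils form, fell in iridophore-enriched libraries by 1.37 and in melanophore-enriched libraries by 0.95 on the log2 scale. In xanthophore-enriched libraries 2 of 6 rose and 1 fell (median -0.01, against -0.03 over all genes). With recomputed size factors 2 members fell in iridophore-enriched and 0 in melanophore-enriched libraries. The gene lists share members, so their counts are not independent of each other. bace2 and gpr143 are also among the melanophore markers, gpr143 is in the melanin and melanosome list too, and sytl2b is also an iridophore marker.

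The wider melanin and melanosome list, without pmela, had 31 genes in the data. Those worth fewer than 5 molecules in the mean of both kinds were not tested. A gene low in skin was thus tested mainly where it was high in the sorted kind, in this list as in the others. In melanophore-enriched libraries 11 of 13 tested rose and 0 fell (median 2.63), with dct, for a melanin-synthesis enzyme, at 4.53 ± 0.32 and tyrp1a at 4.26 ± 0.37. In iridophore-enriched libraries 19 of 20 rose and 0 fell (median 1.97), with trpm1b at 4.54 ± 0.23, the vesicle-traffic GTPase genes rab32a at 3.07 ± 0.18 and rab38b at 2.98 ± 0.24, and hps3 at 2.80 ± 0.21. In xanthophore-enriched libraries 4 of 6 rose (median 1.37). gpnmb and 19 of the 20 tested genes were higher in iridophore-enriched libraries, a count that the minimum of molecules favours and that does not speak for the untested genes. There pmela stood at 1.52 and did not pass, but its 95% interval of 0.13 to 2.91 held the median of the tested genes. A difference between pmela and the list was not tested. Of the MITF and TFE transcription factors only 2 were abundant enough to test in iridophore-enriched libraries, where tfec rose by 5.06 ± 0.26 (limma's adjusted p = 2.37e-21) and tfe3a fell by 0.95. In melanophore-enriched libraries tfec alone was tested and rose by 2.41 ± 0.30, and in xanthophore-enriched libraries none was tested. The zebrafish tfec is known for its part in iridophore formation.

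Because mammalian Gpnmb is also found in lysosomes, macrophages and osteoclasts, their lists were set beside it. Lysosomal genes rose in 14 of 17 tested cases in melanophore-enriched libraries (0 fell, median 1.0), with the protease genes ctsd at 2.62 ± 0.19 and lgmn at 1.98 ± 0.17. In iridophore-enriched libraries, where gpnmb was highest, 8 of 21 rose and 4 fell (median 0.25, where 27% of all genes rose and 28.4% fell), with lgmn at 1.51 ± 0.19 and grna falling by 1.95, and in xanthophore-enriched libraries 6 of 15 rose (median 0.47). Markers of macrophages and leukocytes fell in 16 of 18 tested cases in iridophore-enriched libraries and rose in none (median -1.56), with ptprc falling by 3.51 and lcp1 by 3.23. Their summed level ran from 6396 to 31085 in iridophore-enriched and from 17411 to 62609 in unenriched libraries. In melanophore-enriched libraries the list's median was 1.33, led by grn1 at 3.88 ± 0.31 and c1qb at 2.55 ± 0.29, and in xanthophore-enriched libraries 8 of 16 rose and 1 fell (median 0.84). Osteoclast markers fell in 4 of 4 tested cases in iridophore-enriched libraries (median -1.56). In melanophore-enriched libraries 1 of 3 fell (mmp9, by 2.05) and in xanthophore-enriched libraries 0 of 3 passed (medians 0.55 and 0.39).

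Over the genes tested in each comparison, each pigment cell list had its highest median in the libraries of its label. Markers of other pigment cells rose there too. The tested genes differ between kinds, and a gene low in skin entered mainly where the sorted kind was high, so the medians are not over a common set. The lists also hold the reporter genes tyrp1b, pnp4a and aox5, so this order is no independent check of the sorting. Iridophore markers rose in 17 of 18 tested cases in iridophore-enriched libraries (1 fell, median 5.19), with a median of 2.17 in melanophore-enriched and 0.10 in xanthophore-enriched libraries, where 2 of 10 rose and 1 fell. Melanophore markers rose in 11 of 12 tested cases in melanophore-enriched (median 2.79), 6 of 8 in iridophore-enriched (1 fell, median 2.08) and 4 of 6 in xanthophore-enriched libraries (median 1.79). Xanthophore markers rose in 10 of 10 tested cases in xanthophore-enriched (median 2.84) and 8 of 10 in melanophore-enriched libraries (median 1.26), and in iridophore-enriched libraries 3 of 12 rose and 6 fell (median -1.13). Keratinocyte markers fell in 13 of 15, 11 of 14 and 1 of 14 tested cases in iridophore-, melanophore- and xanthophore-enriched libraries (medians -1.36, -1.55 and -0.57). Markers of dermal fibroblasts and scales fell in 12 of 12, 7 of 10 and 8 of 11 (medians -3.49, -1.34 and -1.30), and 1 rose in melanophore-enriched libraries.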

How the data were processed

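Each allele, D. rerio and paternal, has its own deposited table, whose unit is a score: the authors scaled read counts of each column by a size factor and rounded them. Median-of-ratios size factors taken again over all 96 allele columns were 0.997 to 1.003. GRCz11, featureCounts and DESeq2 1.44.0 are named per the submitters' processing notes, while the sources used here name neither aligner nor variants. A preference of the alignment for either allele of a gene was not tested.

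Since the values are not counts, no count test was run. A value per molecule was estimated in each library from the spread of allele shares between replicates, over genes with summed values of 300 to 3000, and lay between 8.52 and 262.7. It also absorbs real spread, so no counting interval per gene is given. Summed alleles were fitted as log2(value + 20) with limma 3.58.1 in R 4.3.3, with a mean per group over 48 libraries in 16 groups, precision weights (lowess span 0.3) and moderated variances with trend and robust settings. Contrasts were means of the 4 within-hybrid differences, for genes worth 5 or more molecules. Allele ratios used a pseudocount of 0.5 molecules and were centred per library. The ratio of the library's median gene, which was -0.06 to 0.86, was subtracted, so a positive median lowered the ratios. The 12 libraries of a hybrid, or of a kind, were fitted together. A group was tested if 2 of 3 libraries held 5 or more molecules, and mitochondrially encoded genes were left out. Two-sided p-values were corrected over all genes of a comparison with the Benjamini-Hochberg method, with 0.05 as the threshold. The scripts were tested on simulated data.

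The labels call the replicate number a batch, so same-numbered libraries of a hybrid were taken as pairs. Over genes with a mean summed value of at least 300, deviations from the group means correlated at a median of 0.08 in 72 such pairs. In 144 pairs of different number the median was -0.04. Correlations lay above 0.1 in 31 of the 72 pairs (highest 0.32) and in 16 of the 144 (highest 0.24), so same-numbered libraries shared some deviation. The design without the block was kept as the main one. The members and the gene lists were chosen with earlier results of these data known, so a list's direction is not independent evidence. Named from each list were members among the 4 with the largest change past the threshold, those that passed against the list's direction, and genes most like each member. Alternatives were replicate blocks, pseudocounts, scalings (equal totals, or size factors taken over the 48 summed libraries in place of the allele columns), weights, filters, centring and leaving out replicates.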

Additional observations from a re-analysis of the deposited data

Results flagged for a closer look

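The allele ratio of gpnmb differed among the 4 hybrids in iridophore-enriched libraries (limma's F = 8.12, adjusted p = 0.00816) and in unenriched libraries (F = 9.75, adjusted p = 0.00237). The fitted centred log2 ratio of the paternal over the D. rerio allele was -1.66 in the albolineatus and -1.64 in the kyathit hybrid, within their SE of each other, and -0.36 in the aesculapii hybrid in iridophore-enriched libraries. In unenriched libraries it ran from -2.58 in the albolineatus to -0.85 in the aesculapii hybrid. Both calls depend on single replicate numbers, as given with the allele ratios above. A difference among hybrids in how reads were assigned to alleles was not tested.

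For pmela in the aesculapii hybrid, the 3 iridophore-enriched libraries had a lower value for the paternal than for the D. rerio allele and the 3 melanophore-enriched libraries a higher one, a difference of -1.51 between the mean centred log2 ratios (iridophore-enriched minus melanophore-enriched). That difference was not tested. The iridophore-enriched ratios rest on an estimated 4.63, 8.11 and 10.6 molecules a library.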

How the results depend on the processing

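For gpnmb the calls in iridophore- or melanophore-enriched over unenriched libraries and in iridophore- over xanthophore-enriched libraries passed under each of 12 enrichment alternatives. So did the pmela call in melanophore-enriched over unenriched libraries, and the calls on both genes in melanophore-enriched over iridophore-enriched libraries. Of 405 recomputed comparisons and F tests for both genes, 387 kept their direction and side of the threshold, as did 402 of 459 for single hybrids and groups. The cause of the changes was not tested. Few estimated molecules in xanthophore-enriched libraries limit all values there.

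With a replicate block per hybrid, pmela in iridophore-enriched over unenriched libraries passed (1.59), and the gpnmb level among hybrids in iridophore-enriched libraries did not (F = 3.92). With the block the kyathit gpnmb difference in xanthophore-enriched libraries turned to 0.11 (number as a term) and 0.019 (per hybrid). The pmela allele ratio of unenriched aesculapii libraries turned to -0.12, and pmela then had 1 group with a higher paternal allele. Apart from these and the calls given beside their results above, the blocks changed no call.

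Size factors taken over the 48 libraries with both alleles summed, unlike those over allele columns, shifted the median gene by 0.10, 0.12 and 0.15 (log2) in iridophore-, melanophore- and xanthophore-enriched over unenriched libraries. The share of calls that were higher became 64.8% (53.2% as deposited) in melanophore- and 72.1% (54.2%) in xanthophore-enriched libraries. pmela in iridophore-enriched libraries then passed (1.63), lower Pmel processing genes numbered 2 in iridophore- and 0 in melanophore-enriched libraries, and 2 osteoclast markers and 1 keratinocyte marker rose in melanophore-enriched libraries. With equal totals the F of the gpnmb level was 4.44.

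Without weights that F was 1.09, the F of the gpnmb allele ratio among hybrids in iridophore-enriched libraries 3.93, the kyathit pmela difference in xanthophore-enriched libraries -0.39 and the pmela ratio of unenriched aesculapii libraries -0.48, and 334 genes passed in melanophore- over xanthophore-enriched libraries. With no filter 7827, 4686 and 4585 genes passed in iridophore-, melanophore- and xanthophore-enriched over unenriched libraries, 3339 in melanophore- over iridophore- and 3203 in iridophore- over xanthophore-enriched libraries. With no centring the F of the pmela ratio in melanophore-enriched libraries was 5.74. Without the unenriched libraries kyathit 5 and nigrofasciatus 3, pmela in iridophore-enriched libraries was 1.80 and the kyathit gpnmb difference in xanthophore-enriched libraries 0.15. Within batches 3 and 5 gpnmb in iridophore- over xanthophore-enriched libraries was 4.77 and 4.62, and in melanophore- over xanthophore-enriched libraries 1.53 in batch 5.

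Leaving out replicate 3, 4 or 5 of every group gave the following ranges. In melanophore- over xanthophore-enriched libraries pmela stood at 4.82 to 5.26 and gpnmb at 2.02 to 3.12. In xanthophore-enriched over unenriched libraries gpnmb stood at -0.48 to 0.31, and in the kyathit hybrid gpnmb at -2.11 to 0.69 and pmela at -2.16 to 1.45. The nigrofasciatus pmela difference in iridophore-enriched libraries was -0.85 to 0.83. The F of the gpnmb level among iridophore-enriched libraries was 0.57 to 4.94. The F of the gpnmb ratio among hybrids was 5.64 to 14.6 in iridophore-enriched libraries. In unenriched libraries, where only the run without replicate 3 could be made, it was 3.12. The F of the pmela ratio in melanophore-enriched libraries was 1.75 to 6.26. The pmela ratio was -0.013 in unenriched aesculapii, -0.68 to 0.094 in albolineatus melanophore-enriched, -0.42 to 0.0070 in nigrofasciatus iridophore-enriched and -0.20 to 0.17 in nigrofasciatus unenriched libraries. Groups with a lower paternal allele numbered 5 to 6 for gpnmb and 0 to 1 for pmela. Genes past the threshold numbered 549 to 928 in melanophore- and 63 to 302 in xanthophore-enriched over unenriched, 31 to 73 in melanophore- over xanthophore-enriched and 599 to 833 in iridophore- over xanthophore-enriched libraries.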
